A study of Rattus norvegicus with 18 samples.

Results

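Per1, Per2, Per3, Nr1d1, Nr1d2 and Dbp are 6 of the 32883 Ensembl gene identifiers counted in the gastrocnemius muscle of 18 rats. They were chosen by identifier as the Period genes, both Rev-erb genes and Dbp, each on the chromosome given for it, and all 6 were found and passed the filter on low counts. The animals were male Brown Norway rats of the substrain BN/SsNOlaHSD, all fed ad libitum (AL) until 2 months of age and housed singly from then on. A first group of 6 rats stayed on AL feeding and was killed at 6 months (young AL), a second group of 6 stayed on AL feeding until 28 months (aged AL), and the last group of 6 received 55% of the AL intake from 2 months until 28 months (aged CR). All rats lived on a 12-h light and 12-h dark cycle with lights on at 08:00. The muscle had been stored frozen before RNA was extracted. Feeding in the caloric restriction (CR) group was confined to a daily window from 10:30 to 11:00, and AL feeding had no such window. The time of day at which each rat was killed is not given in the sources used here, and no young CR group was analysed here, so feeding schedule, intake and any difference in sampling time cannot be told apart in the values of the CR group.

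The 6 genes belong to the circadian clock, a loop of transcription factors that runs in most cells with a period of about a day. BMAL1 pairs with CLOCK or NPAS2 and switches on genes through E-boxes, among them the Period genes, the Rev-erb genes and Dbp. PER proteins join CRY proteins and shut down BMAL1 and its partner, REV-ERB proteins repress Bmal1 through ROR elements, and DBP activates further genes through D-boxes. In skeletal muscle the clock times genes of glucose and lipid use, and the hours of feeding can reset it, so the level of a clock gene in muscle taken at a single time depends on where in its daily cycle the tissue was.

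Promoter sequence is shown here because the elements named above are those through which the clock acts on its own genes. RefSeq promoter windows of build GRCr8 matched all 6 genes by symbol, in 7 windows, since Nr1d1 has a pair of start sites. The 250 bases before each start site were searched on both strands for 5 strings, which do not overlap in the matches found. These were the E-box CACGTG, the E'-box CACGTT, the D-box TTANGTAA, the core of the ROR element, AGGTCA, and the cAMP response element TGACGTCA. The windows below, from 5' to 3', are the 4 that hold a match, with the match in capitals.
Per2, chr9:99496994-99497243, minus strand: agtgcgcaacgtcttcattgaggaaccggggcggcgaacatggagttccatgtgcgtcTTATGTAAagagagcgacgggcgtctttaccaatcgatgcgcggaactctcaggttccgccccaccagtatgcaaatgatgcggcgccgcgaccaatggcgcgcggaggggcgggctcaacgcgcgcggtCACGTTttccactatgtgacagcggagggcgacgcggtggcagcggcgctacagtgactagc
Nr1d1, upstream start site, chr10:84231813-84232062, minus strand: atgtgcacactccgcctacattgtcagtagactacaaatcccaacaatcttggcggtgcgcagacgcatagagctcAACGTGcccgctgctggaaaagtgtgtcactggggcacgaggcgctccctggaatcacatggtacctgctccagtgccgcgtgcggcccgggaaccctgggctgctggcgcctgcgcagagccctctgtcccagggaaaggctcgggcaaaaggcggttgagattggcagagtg
Nr1d1, downstream start site, chr10:84229455-84229704, minus strand: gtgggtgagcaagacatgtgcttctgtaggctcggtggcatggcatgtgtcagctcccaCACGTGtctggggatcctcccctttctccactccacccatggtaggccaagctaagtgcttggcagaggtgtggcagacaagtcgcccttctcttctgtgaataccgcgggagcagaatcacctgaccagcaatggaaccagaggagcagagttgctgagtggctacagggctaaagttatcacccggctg
Nr1d2, chr15:9954784-9955033, plus strand: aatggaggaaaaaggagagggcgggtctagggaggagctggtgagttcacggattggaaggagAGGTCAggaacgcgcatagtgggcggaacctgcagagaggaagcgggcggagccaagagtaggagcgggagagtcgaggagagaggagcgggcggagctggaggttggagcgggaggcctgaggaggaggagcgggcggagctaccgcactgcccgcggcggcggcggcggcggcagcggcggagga
In Per2 the D-box letters TTATGTAA stand 192 to 185 bases before the start site and the E'-box letters CACGTT 62 to 57 bases before it. The upstream Nr1d1 window holds an E'-box on the other strand, at 174 to 169 bases, and the downstream window an E-box at 191 to 186 bases. Nr1d2 carries the ROR element core at 187 to 182 bases. Among all 33469 windows of the same length, 5.59% hold an E-box, 4.07% an E'-box, 2.04% a D-box, 14.1% the ROR element core and 1.59% the cAMP response element, which no window of the 6 genes holds. These are matches of letters and not sites shown to be bound. None of the 5 strings stood in the windows of Per1, Per3 and Dbp, which says only that these letters are not in those 250 bases.

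Total counts per library lay between 17335401 and 27432767, and a member had between 191 and 4719 counts in a library, so counting error was at most 7.24% of a value. Rat 8 (aged AL) and library 8828 (aged CR) stood apart from the rest, at 108.86 and 75.53 on the first principal component of log2 CPM (CPM, counts scaled to the library total and TMM factor), where no other library was above 8.25. Their TMM factors were 1.44 and 1.12. Library 8828 had the lowest value of its group for all 6 genes after TMM scaling and for 3 of the 6 with library totals alone, and calls that changed without it or without both it and rat 8 are given with those values. Ranks within the aged AL group also moved with scaling. After TMM scaling rats 8 and 10 were each lowest for 2 genes. With library totals alone rat 10 was lowest for all 6, and rat 8 was lowest for none and highest for 2. Gene symbols are paired with identifiers here only for the 6 members, so the labelled tissue was not checked against muscle markers, and Bmal1, Clock, Npas2, the Cry genes and the other clock genes were not analysed here. In whole muscle, fewer cells of a type and less RNA per cell cannot be told apart. Each group has its own block of library numbers, so any handling that followed these numbers cannot be told apart from the group.

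The first question was how the clock genes of aged muscle differed from those of young muscle under the same AL feeding. In aged AL rats, Dbp and Per3 rose, Per1 fell, and Per2, Nr1d1 and Nr1d2 did not pass the test. Calls needed both a Benjamini-Hochberg adjusted p no higher than 0.05 in the quasi-likelihood test of edgeR and a 1.5-fold difference. Of the 6 genes 3 were called, 2 higher and 1 lower, where 3.39% of all 14646 genes tested were called, 1.88% higher and 1.52% lower. A log2FC is a log2 fold change, printed with its standard error (SE). The second question was how aged CR rats differed from each AL group. Against young rats, Dbp, Per3 and Per2 were called higher and Nr1d1 lower in aged CR rats, 4 of 6 genes where 1.98% of all genes were called. These were 3 genes higher where 0.765% of all genes were and 1 gene lower where 1.22% were. Against aged AL rats, Per2, Per1, Dbp and Per3 were called higher and Nr1d1 lower in aged CR rats, 5 of 6 where 1.38% of all genes were called. These were 4 genes higher against 0.833% of all genes and 1 lower against 0.546%. The aged CR contrasts share their samples with each other and with the contrast of age, and the genes were chosen with earlier results of these data known, so these counts are a description. The number of all genes called moved by over 1.5 times when some single libraries were left out, from 288 to 678 with age, from 185 to 578 in aged CR against young rats and from 69 to 385 between the aged groups. The members called fell from 3 to 1 with age without rat 5, and from 5 to 3 between the aged groups without library 8826. Between the aged groups, 60.4% of all genes called were higher in aged CR rats with TMM factors and 25.6% with library totals only. With age, 55.3% and 78.1% were higher in aged rats. In aged CR against young rats, 38.6% were higher with TMM factors and 52.5% with upper-quartile factors.

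**Figure D1:**
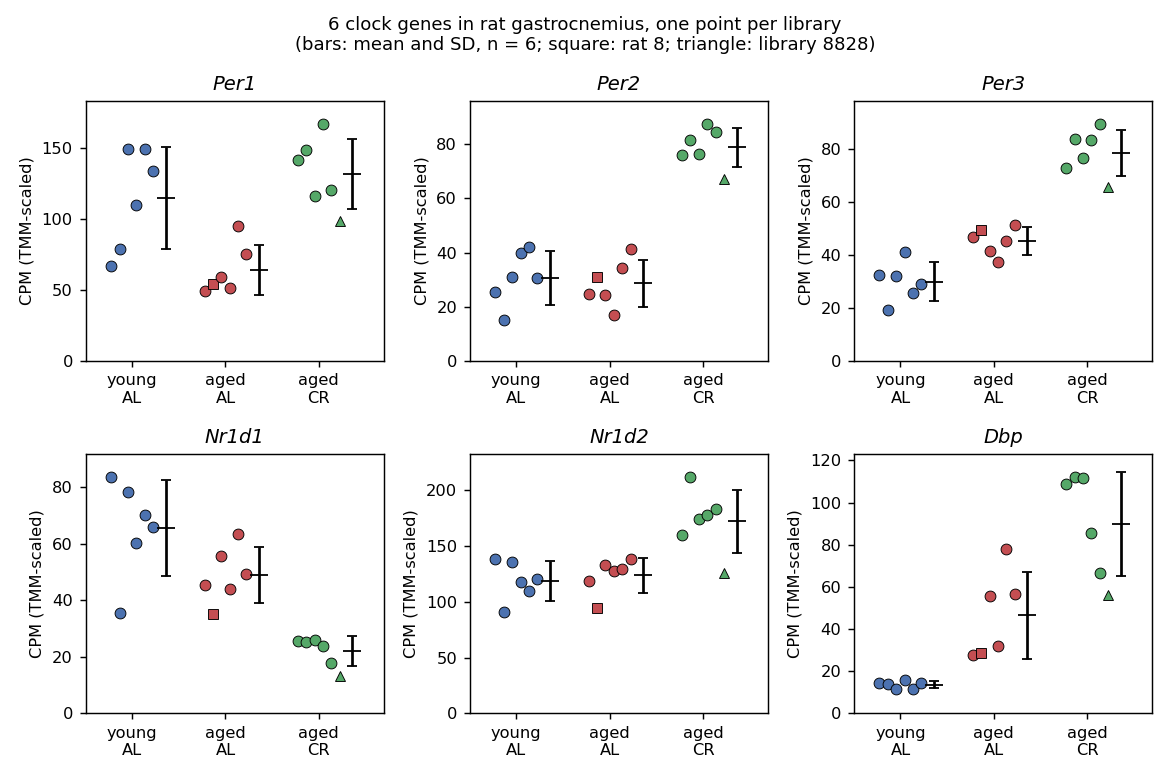
Level of each gene in CPM (TMM-scaled, linear axis from 0) in every library of the 3 groups, with the mean and SD (n = 6) beside the points. Dbp lay between 11.4 and 15.9 CPM in young rats and above that range in every aged rat, while Nr1d1 was at most 25.8 CPM in aged CR rats and at least 35.2 CPM in every rat fed AL.

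Dbp (ENSRNOG00000021027) encodes a PAR bZIP transcription factor, an output of the clock whose RNA swings widely over the day in many tissues. The gene is on chromosome 1 of Rnor_6.0, from 101687855 to 101692846 on the plus strand, with 1702 exon bases in 4 merged exons. In young rats fed AL its lowest, median and highest levels were 11.4, 14.2 and 15.9 CPM. In aged AL rats they were 27.6, 43.8 and 78.2 CPM, and in aged CR rats 56.0, 97.1 and 112.0 CPM. Every aged rat was above every young rat, and the aged AL and CR ranges overlapped, with 4 of the 6 aged CR rats above all aged AL rats.

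The mean of Dbp was 13.6 CPM in young rats, 46.4 ± 20.4 CPM in aged AL rats and 90.1 ± 24.6 CPM in aged CR rats (SD, n = 6 each). Aged rats fed AL were above young rats 3.41-fold (log2FC 1.77, SE 0.25, adjusted p = 0.00104). Aged CR rats were above young rats by log2FC 2.72 (SE 0.26, adjusted p = 9.05e-06), and only 3 of the 14646 genes tested had a lower p in that contrast. Both differences kept their call when any library was left out. The step from aged AL to aged CR was smaller, with log2FC 0.95 (SE 0.24, adjusted p = 0.0489). It is a borderline call, which was lost in 15 of the 18 fits that left out a library, where the log2FC stayed between 0.84 and 1.03 and the adjusted p between 0.0553 and 0.108, and kept only without rat 8, rat 11 or library 8828. The call was also lost with library totals only (log2FC 0.82, adjusted p = 0.058) and without a filter on low counts (0.95, adjusted p = 0.0737). On the 2 groups compared, edgeR gave 0.96 with an adjusted p of 0.112.

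The rats of the aged AL group differed more in Dbp than those of the young group. The highest young rat had 1.39 times the level of the lowest, the highest aged rat fed AL 2.83 times and the highest aged CR rat 2.00 times. Rat 11, the highest of the aged AL group in Dbp, was also its highest in Per1 and Nr1d1. Rats 7, 8 and 10 formed the low end of that group, between 27.6 and 32.0 CPM, and the other 3 lay between 55.5 and 78.2 CPM.

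Per3 (ENSRNOG00000018413) encodes the Period protein that is the least needed of the family for the core loop. It lies on chromosome 5, from 168086998 to 168123395 on the minus strand, with 6466 exon bases. Its lowest, median and highest levels were 19.1, 30.5 and 41.1 CPM in young rats, 37.2, 46.1 and 51.3 CPM in aged AL rats, and 65.8, 80.1 and 89.4 CPM in aged CR rats. The groups were thus stacked in 3 steps, with an overlap between young and aged AL rats that came from rat 10 of the aged and rat 4 of the young group, and none between aged CR rats and either AL group.

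The rise of Per3 from young to aged AL rats was log2FC 0.60 (SE 0.14, adjusted p = 0.0224), just past the minimum fold. Without rat 2, 8 or 12 the fold fell under the minimum, at log2FC 0.50, 0.58 and 0.57, and without rat 5 the log2FC was 0.56 with an adjusted p of 0.0557. Leaving out rat 8 and library 8828 together gave 0.58 with an adjusted p of 0.0197. On the 2 groups compared, edgeR gave 0.61 with an adjusted p of 0.0633, so the call was lost there too. In aged CR rats Per3 was above young rats by 1.40 on the log2 scale (SE 0.14, adjusted p = 2.58e-05) and above aged AL rats by 0.80 (SE 0.14, adjusted p = 0.00749). Both calls with aged CR rats held on leaving out each library in turn, and with library totals in place of TMM factors the difference between the aged groups was 0.60 (adjusted p = 0.0523).

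Per2 (ENSRNOG00000020254) encodes a core repressor of the loop whose loss disturbs behavioural rhythms in mice. The gene is on chromosome 9, from 98555169 to 98597359 on the minus strand, with 5783 exon bases, and its promoter window is the one above with a D-box and an E'-box. Young rats had a lowest, median and highest level of 14.9, 30.7 and 42.0 CPM, and aged AL rats had 16.8, 27.7 and 41.4 CPM. In aged CR rats these were 67.2, 79.0 and 87.4 CPM. The AL ranges lay almost on top of each other, and every aged CR rat was above every rat fed AL.

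Age under AL feeding gave Per2 log2FC -0.09 (SE 0.21, adjusted p = 0.839), with an approximate 95% interval from -0.51 to 0.33. The interval stays inside a 1.5-fold change in either direction. In aged CR rats Per2 was 2.58-fold above young rats (log2FC 1.37, SE 0.22, adjusted p = 0.00205) and 2.75-fold above aged AL rats (log2FC 1.46, SE 0.22, adjusted p = 0.0026). It was the gene of the 6 with the lowest p between the aged groups, with 12 of all genes tested lower. The aged CR rats were also close to each other, with a coefficient of variation of 9.18%, against 32.4% in young and 30.2% in aged AL rats.

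Per1 (ENSRNOG00000007387) encodes the Period protein whose gene also answers within hours to light, feeding and glucocorticoids. It lies on chromosome 10, from 55687050 to 55695994 on the plus strand, with 4049 exon bases. Its lowest, median and highest levels were 66.6, 121.5 and 149.2 CPM in young rats, 48.9, 56.7 and 94.9 CPM in aged AL rats, and 98.3, 130.4 and 166.4 CPM in aged CR rats. Aged rats fed AL were low, with 4 of the 6 below every young rat, and all aged CR rats were above all of them. Young rats spread widely, with rats 1 and 2 at 66.6 and 78.6 CPM and the others at 109.9 CPM or more.

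Per1 in aged AL rats fell by 0.84 on the log2 scale (SE 0.21, adjusted p = 0.0307) from its level in young rats, a 1.79-fold difference. The call was lost without rat 3, 5, 6, 7, 9 or 10, with log2FCs from -0.82 to -0.75 and adjusted p from 0.0545 to 0.073, so the sign held and the call did not. It was also lost with library totals only (log2FC -0.67, adjusted p = 0.0674). On the 2 groups compared, edgeR gave log2FC -0.83 with an adjusted p of 0.0756. Between the aged groups Per1 was 2.06-fold higher in CR rats (log2FC 1.04, SE 0.21, adjusted p = 0.018), and without library 8826 the log2FC was 0.96 with an adjusted p of 0.0553. Aged CR rats and young rats differed by 0.20 on the log2 scale (SE 0.21, adjusted p = 0.644), with an interval from -0.21 to 0.61. Per1 was thus the member for which age under AL feeding and CR had called differences of opposite sign, and its level in aged CR rats overlapped that of young rats. The contrasts share the aged AL rats, so their opposite signs are not independent.

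**Figure D2:**
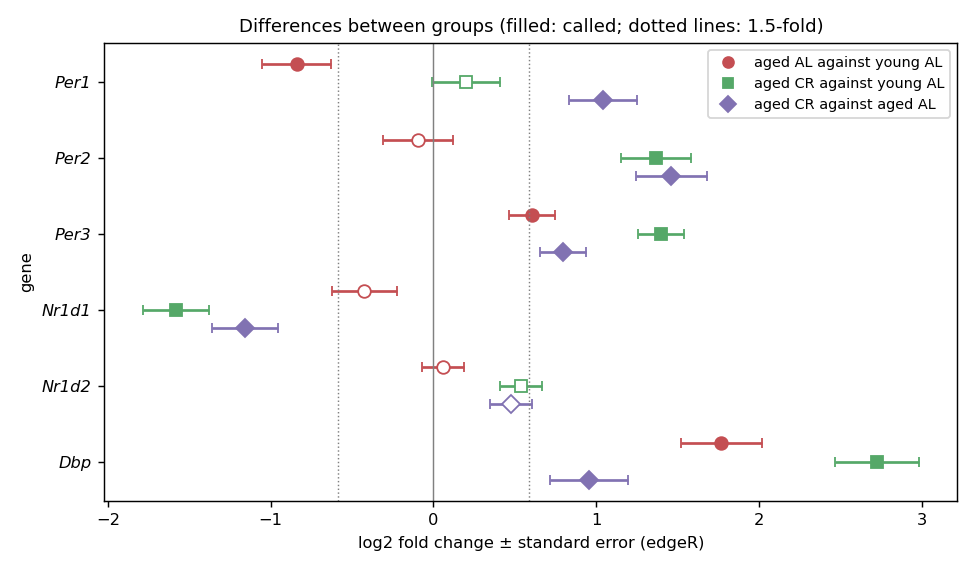
Log2 fold change with its standard error (edgeR, all 18 libraries) for each gene in the 3 comparisons, filled where called and with dotted lines at a 1.5-fold change. Nr1d1 lies at -1.58 and -1.16 in the comparisons of aged CR rats, while Per2, Per3 and Dbp lie between 0.80 and 2.72 there.

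Nr1d1 (ENSRNOG00000009329) encodes REV-ERB alpha, the nuclear receptor that represses Bmal1 and binds haem. It is on chromosome 10, from 86683875 to 86690815 on the minus strand, with 2549 exon bases. Young rats had a lowest, median and highest level of 35.6, 68.0 and 83.5 CPM. In aged AL rats these were 35.2, 47.4 and 63.4 CPM, and in aged CR rats 13.1, 24.7 and 25.8 CPM. Every aged CR rat was below every rat fed AL, and the AL groups overlapped over most of their range.

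Nr1d1 fell in aged CR rats, by 1.58 on the log2 scale against young rats (SE 0.20, adjusted p = 0.000272) and by 1.16 against aged AL rats (SE 0.20, adjusted p = 0.00695). These are 2.99-fold and 2.23-fold differences, and they held on leaving out each library in turn. Between aged and young rats fed AL the log2FC was -0.42 (SE 0.20, adjusted p = 0.214), with an interval from -0.81 to -0.04. That interval is not adjusted for the number of genes tested, and the edgeR p before adjustment was 0.0451. Nr1d1 was the only one of the 6 that was lower in aged CR rats than in either AL group. The aged AL mean of 48.9 ± 9.80 CPM lay between the young mean of 65.6 ± 16.9 CPM and the aged CR mean of 21.9 ± 5.32 CPM (SD, n = 6 each).

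Of the exon bases of Nr1d1, 263 (10.3%) are also exon bases of ENSRNOG00000009066 on the opposite strand, whereas the other 5 genes share none with any annotated gene. The libraries were strand-specific, but the counting command carries no strand option, so fragments from the shared stretch could not be given to a strand. The command also carries no option to count a fragment for several genes, so no fragment was counted for both genes. The exon length used for the level of Nr1d1 per kilobase includes the shared bases. The overlapping gene had log2FCs of -0.23 in aged against young rats fed AL, -0.34 in aged CR against young rats and -0.11 between the aged groups (SE 0.09 each, adjusted p = 0.155, 0.0556 and 0.624). None of these passed the test, and each was smaller than the change of Nr1d1. The part of the shared stretch in the result was not tested.

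Nr1d2 (ENSRNOG00000046912) encodes REV-ERB beta, the close relative of REV-ERB alpha with a like function. It is on chromosome 15, from 8730871 to 8757165 on the plus strand, with 4610 exon bases. Its lowest, median and highest levels were 90.8, 118.9 and 138.8 CPM in young rats and 94.9, 128.6 and 138.7 CPM in aged AL rats. Aged CR rats had 125.9, 175.8 and 211.8 CPM, and 5 of the 6 were above every rat fed AL, with library 8828 as the exception.

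Aged CR rats exceeded young rats in Nr1d2 by log2FC 0.54 (SE 0.13, adjusted p = 0.0332), which passed the p but not the fold, at 1.45-fold. The p depended on single libraries, with an adjusted p from 0.0501 to 0.0801 in 9 of the 18 fits that left out a library (rats 2, 4, 5, 6, 13, 14 and 15 and libraries 8826 and 8827) and 0.0519 without a filter on low counts. Without library 8828 the log2FC was 0.61 (adjusted p = 0.0137), and without both rat 8 and library 8828 it was 0.62 (adjusted p = 0.00289), each past the minimum fold. Against aged AL rats the log2FC was 0.48 (SE 0.13, adjusted p = 0.0676), with an interval from 0.22 to 0.73. It was 0.55 (adjusted p = 0.0218) without library 8828 and 0.49 (adjusted p = 0.0177) without rat 8 as well, below the minimum fold, and the other 17 fits without a library gave an adjusted p above 0.05. Between aged and young rats fed AL it was 0.06 (SE 0.13, adjusted p = 0.829), with an interval from -0.20 to 0.32. Nr1d2 was the least changed of the 6 between aged CR rats and aged AL rats.

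Groups that did not overlap at all were found for 1 of the 6 genes between aged and young rats fed AL, where 2.40% of all genes tested did the same (1.28% higher and 1.11% lower in the aged). The gene was Dbp, higher in the aged. Between aged CR and young rats 4 of the 6 did not overlap, namely Per2, Per3, Nr1d1 and Dbp, against 3.26% of all genes (1.65% higher and 1.61% lower), with 3 higher and Nr1d1 lower. Between the aged groups it was again 4 of 6, here all 3 Period genes and Nr1d1, against 2.06% of all genes (1.15% higher and 0.908% lower). The median log2FC of the 6 was -0.02, 0.95 and 0.88 in these 3 comparisons in that order, where the median of all genes was 0.01, 0.00 and -0.02.

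Levels of different genes were compared per length, as mean CPM per kilobase of exon. In young rats Per1 (28.3 ± 8.81), Nr1d2 (25.8 ± 3.82) and Nr1d1 (25.7 ± 6.64) were the most abundant per kilobase, and these 3 differed by less than their SD. Dbp (8.00 ± 1.03) came below them, and Per2 (5.29 ± 1.71) and Per3 (4.61 ± 1.14) were lowest and within an SD of each other. In aged AL rats the order was Dbp (27.3 ± 12.0), Nr1d2 (26.8 ± 3.40), Nr1d1 (19.2 ± 3.84), Per1 (15.8 ± 4.39), Per3 (7.0 ± 0.80) and Per2 (4.96 ± 1.5), where Dbp and Nr1d2 differed by less than their SD, as did Nr1d1 and Per1. The first place of Dbp is not distinct from Nr1d2, since rat 11 alone was at 45.9 for Dbp and the other 5 rats between 16.2 and 33.4.

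In aged CR rats the order per kilobase was Dbp (52.9 ± 14.5), Nr1d2 (37.3 ± 6.16), Per1 (32.5 ± 6.12), Per2 (13.6 ± 1.25), Per3 (12.2 ± 1.33) and Nr1d1 (8.60 ± 2.09). Nr1d2 and Per1 differed by less than their SD. Nr1d1, which was level with Nr1d2 in young rats, was the least abundant of the 6 per kilobase in aged CR rats. No test was run between genes.

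A ratio of a pair of genes in the same library is free of the scaling between libraries. The ratio of Dbp to Nr1d1 per kilobase had a lowest, median and highest value of 0.219, 0.294 and 0.586 in young rats, 0.910, 1.35 and 1.85 in aged AL rats, and 5.34, 6.39 and 6.60 in aged CR rats. The 3 groups did not overlap on this ratio, and library 8828, low in each gene, lay within the range of the other aged CR rats. The ratio of Nr1d2 to Nr1d1 ranged from 0.863 to 1.41 in young rats, from 1.13 to 1.6 in aged AL rats and from 3.45 to 5.73 in aged CR rats. Here the AL groups overlapped and the CR group stood apart.

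Other ratios separated the groups in other ways. Per2 to Nr1d1 had medians of 0.194 in young rats, 0.238 in aged AL rats and 1.51 in aged CR rats, with no overlap between aged CR rats and the others. Dbp to Per1 ranged from 0.182 to 0.516 in young rats, from 1.25 to 2.23 in aged AL rats and from 1.22 to 2.3 in aged CR rats, so that it parted young from aged rats but not the aged groups. Per1 to Per3 had medians of 6.96 in young rats, 2.24 in aged AL rats and 2.62 in aged CR rats, and here the AL groups overlapped at 3.29 to 3.34. The pairs shown were picked after their values were seen, and no test was run on them.

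**Figure D3:**
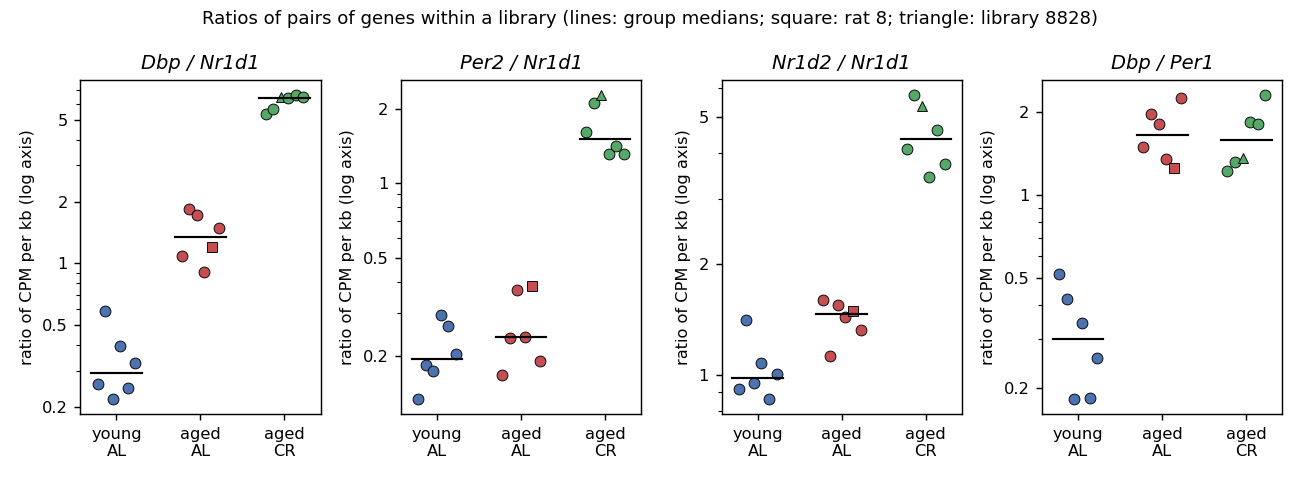
Ratio of a pair of genes, each in CPM per kilobase, in every library (log axis), with lines at the group medians. The ratio of Dbp to Nr1d1 rose from a median of 0.294 in young rats to 1.35 in aged AL rats and 6.39 in aged CR rats without overlap, while Dbp to Per1 had medians of 1.64 and 1.58 in the aged groups.

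How far rats of the same group varied together was measured on log2 CPM centred on the group mean, for the 15 pairs of genes over 18 libraries. All 15 correlations were above 0, with a median Pearson r of 0.45. The values of a library share its scaling factor, which moves all genes of that library together. By a permutation test within groups (two-sided, 100000 resamples), 4 pairs had a Benjamini-Hochberg adjusted p of at most 0.05 over the 15 pairs by Pearson's r, and none by Spearman's rho. Each r was also computed without the 2 libraries farthest from the median. These were picked on the centred values of the first-named gene of a pair alone, so they can differ between pairs.

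Nr1d1 with Nr1d2 had the highest r over all 18 libraries, though not without the libraries named next (r = 0.80, permutation p = 0.00091, adjusted p = 0.014, and rho = 0.612, permutation p = 0.012, adjusted p = 0.062), with r = 0.553 without the 2 libraries farthest from the median and 0.661 without rat 8 and library 8828. Within the groups its r was 0.922 in young, 0.788 in aged AL and 0.702 in aged CR rats, each over 6 rats and not tested. Nr1d1 with Dbp had r = 0.582 (permutation p = 0.005, adjusted p = 0.033) and rho = 0.606 (permutation p = 0.008, adjusted p = 0.058), with r = 0.716 without the farthest 2. In this pair r was -0.280 in young rats, 0.878 in aged AL rats and 0.955 in aged CR rats, each over 6 rats, and the difference between groups was not tested. Without rat 8 and library 8828 the centred r of the pair was 0.384.

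Per1 with Per2 had r = 0.668 (permutation p = 0.010, adjusted p = 0.037) and rho = 0.719 (permutation p = 0.003, adjusted p = 0.050, above 0.05 before rounding), with r = 0.713 without the farthest 2 and 0.686 without rat 8 and library 8828. Per2 with Per3 had r = 0.720 (permutation p = 0.007, adjusted p = 0.033) and rho = 0.583 (permutation p = 0.023, adjusted p = 0.087). Its r fell to 0.340 without the 2 libraries farthest from the median and was 0.710 without rat 8 and library 8828. Within the groups it was 0.690 in young, 0.884 in aged AL and 0.937 in aged CR rats, each over 6 rats. Among the other 11 pairs r ranged from 0.132, for Per3 with Dbp, to 0.511, for Per3 with Nr1d2. Without the 2 libraries farthest from the median these 11 ranged from 0.017, for Per2 with Nr1d1 (0.453 over all libraries), to 0.785, for Per1 with Nr1d1 (0.502 over all libraries). The latter was then the highest of the 15, though the libraries left out can differ between pairs. Per3 with Nr1d2 had r = -0.277 within aged AL rats, against 0.745 in young and 0.868 in aged CR rats. Without rat 8 and library 8828, Per3 with Nr1d2 was at 0.649, Nr1d2 with Dbp went from 0.477 to 0.150 and Per1 with Nr1d2 from 0.344 to 0.183.

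**Figure D4:**
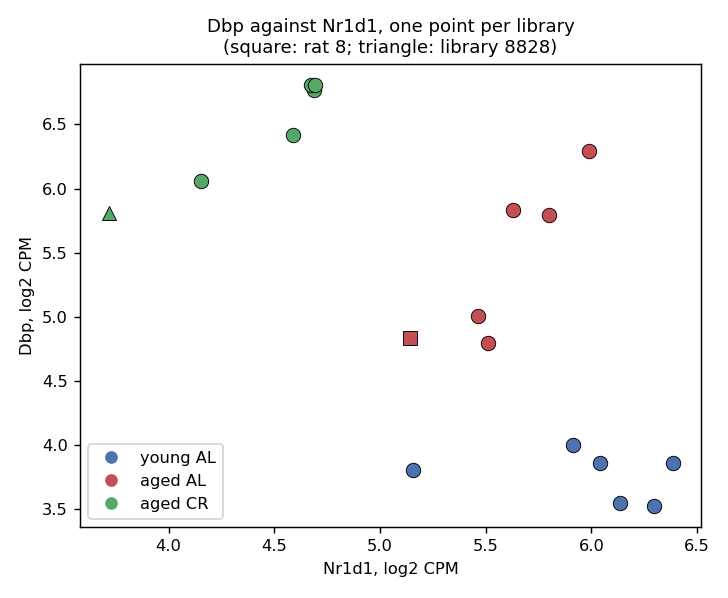
Dbp against Nr1d1 in log2 CPM, 1 point per library, coloured by group. Aged CR rats sit at high Dbp and low Nr1d1 and young rats at low Dbp and higher Nr1d1. Within each aged group libraries with more Nr1d1 tended to have more Dbp (r = 0.878 in aged AL and 0.955 in aged CR rats). In young rats r was -0.280. The r on values centred on the group mean went from 0.582 to 0.384 without rat 8 and library 8828.

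The genes most like the members were sought by their Pearson correlation, over the 18 libraries, with the mean of the standardized log2 CPM of the 6. Group differences are part of this measure, so it is a description without a test. The members themselves had correlations of 0.916 (Nr1d2), 0.912 (Per2), 0.835 (Per3), 0.756 (Dbp), 0.665 (Per1) and -0.454 (Nr1d1) with that mean. Outside the 6, ENSRNOG00000045843 on chromosome 5 (58855773 to 58882096) was the most alike at 0.901, with means of 49.3, 51.1 and 137.5 CPM in young AL, aged AL and aged CR rats. ENSRNOG00000006002 on chromosome 3 (122308025 to 122336468) followed at 0.878, with means of 9.45, 9.29 and 15.4 CPM. Both were level between the AL groups and higher in aged CR rats, as Per2 was.

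The most opposite genes were ENSRNOG00000047957 on chromosome 13 (110758761 to 110784209) at -0.858 and ENSRNOG00000010951 on chromosome 8 (122789453 to 122807560) at -0.845. Their means were 15.7, 13.1 and 8.11 CPM and 50.8, 48.8 and 29.7 CPM in the same order of groups. Neither was called between aged CR rats and either AL group (adjusted p from 0.057 to 0.193). With Spearman's rho in place of Pearson's r, ENSRNOG00000045843 was again the most alike, at 0.907, but the next was ENSRNOG00000042717 at 0.868 in place of ENSRNOG00000006002, which had a rho of 0.719. The same opposite genes were found, in the other order.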

How the data were processed

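Counts were deposited as whole numbers of fragments per gene, without normalization, for 18 gastrocnemius libraries. The authors depleted ribosomal RNA, made strand-specific libraries, aligned reads with STAR 2.3.0e and counted them with featureCounts 1.6.4 on the genes of Rnor_6.0, annotation release 96, with no strand option in the command. The gene lengths in the table are summed exon bases. For 15 libraries the column name matched 1 rat. In the other 3, all aged CR, the sample number and library number belong to different rats in the labels, so these are named by library number and used as replicates of that group. No columns of other samples were present, and no pair of libraries was identical.

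In R 4.3.3 with edgeR 4.0.16, genes were kept by filterByExpr (14646), scaled with TMM factors, and tested over all 18 libraries with the quasi-likelihood test, with Benjamini-Hochberg adjustment over all genes tested. The standard error is the absolute log2 fold change over the square root of F. Intervals are approximate 95% normal intervals and are not adjusted for the number of genes tested. CPM values are TMM-scaled, and log2 CPM for correlations has a prior count of 2. Alternatives were other scalings, filters and thresholds, robust shrinkage, only the groups compared, DESeq2 1.42.0, and leaving out libraries. The edgeR fit was first run on simulated counts with 200 known changes, and that simulation covered no other step. In aged AL against young rats it called 85.5% of the changes (2-fold). The share was 97% in aged CR against young rats (4-fold) and 79.5% between the aged groups (2-fold). Unchanged genes made up 4.47%, 4.43% and 3.05% of the calls in that order. The members and lists were chosen with earlier results of these data known. Genes to be named were the 6 members, listed clock, glucocorticoid-responsive and cell marker genes where symbols could be paired with identifiers, which was not possible here, and the 2 genes most and 2 least correlated with the mean of the members. Protein sequences were not used here.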

Additional observations from a re-analysis of the deposited data

How the results depend on the processing

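Of the 18 log2 fold changes (6 genes in 3 comparisons), 10 kept their sign and their side of the call in all 10 other fits and in every fit without a library, namely Nr1d1 in all 3 comparisons, Per2 in both with aged CR rats, Dbp in both with young rats, Per3 and Per1 in aged CR against young rats, and Nr1d2 between the aged groups. RLE factors, robust shrinkage, a filter of 10 counts in every library and both DESeq2 fits changed none of the 18. With library totals only, which put the median of all genes at 0.18 between aged and young rats fed AL and at -0.19 between the aged groups, calls were lost for Per1 with age (-0.67) and between the aged groups for Per3 (0.60) and Dbp (0.82), leaving 3 called there, and Per2 with age turned to 0.09, below that median. edgeR on the 2 groups compared lost Per1 (-0.83) and Per3 (0.61) with age, leaving 1 called, and Dbp between the aged groups (0.96), as did testing without a filter (0.95). Without rat 8 and library 8828, Per3 with age was at 0.58, under the minimum fold, and Nr1d2 in aged CR against young rats was called at 0.62, as with upper-quartile factors (0.60). Nr1d2 between the aged groups, under the minimum fold throughout, had an adjusted p of 0.0416 with upper-quartile factors, 0.0418 with 10 counts in every library and 0.0132 and 0.0199 with DESeq2. An adjusted p of at most 0.01 left 1 gene called with age and 3 between the aged groups. The cause of these moves was not tested.

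Leaving out each library gave, with age, ranges of -0.99 to -0.75 (Per1), -0.24 to 0.03 (Per2, above 0 without rat 5 or rat 10), 0.50 to 0.71 (Per3), -0.55 to -0.34 (Nr1d1), -0.01 to 0.13 (Nr1d2, below 0 without rat 2) and 1.56 to 1.88 (Dbp), and 1 to 3 genes called, 1 without rat 5. In aged CR against young rats they were 0.08 to 0.29, 1.23 to 1.48, 1.30 to 1.51, -1.71 to -1.47, 0.47 to 0.61 and 2.65 to 2.83, with 4 to 5 called. Between the aged groups they were 0.96 to 1.19, 1.34 to 1.59, 0.74 to 0.84, -1.23 to -1.04, 0.41 to 0.55 and 0.84 to 1.17, with 3 to 5 called, 3 without library 8826.

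Over all genes, edgeR called 497, 290 and 202 genes in the 3 comparisons (with age, aged CR against young, between the aged groups) and DESeq2 with all libraries 850, 598 and 436. On the 2 groups compared, DESeq2 called 730, 849 and 423 and edgeR 258, 441 and 130. Without rat 8 and library 8828 edgeR called 706, 455 and 477, without a filter 129 between the aged groups, and with 10 counts in every library 330 with age. Counts moved by over 1.5 times with age without rat 1 (329), 3 (325), 5 (299), 6 (305) or 9 (288), in aged CR against young rats without rat 3 (188), 5 (192) or 8 (578) or library 8826 (185), and between the aged groups without rat 7 (128), 8 (385) or 10 (129) or library 8826 (69), 8827 (103) or 8828 (361). Genes higher in the first-named group made up 55.3%, 38.6% and 60.4% of the calls with TMM factors, 65.6%, 52.5% and 61.1% with upper-quartile factors and 78.1%, 31.8% and 25.6% with library totals only. No paired analysis was possible because the rats carry different numbers in each group. In the 18 sets of 6 values, no library lay apart from its group by Dixon's criterion.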
